A study of Homo sapiens with 6 samples.

Results

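Long noncoding and antisense RNAs were examined in T98G cells, an established human glioblastoma line, after knockout of CBX8 with Cas9 and a single guide RNA. CBX8 is a chromodomain subunit of the polycomb repressive complex PRC1. The KO line carried either an empty doxycycline-inducible vector (CBX8 KO, 3 libraries) or the same vector with the WT CBX8 gene (WT CBX8 re-expression, 3 libraries), and the cells of all 6 libraries received 1 µg/ml doxycycline for 72 h. Both lines were made by lentiviral transduction and drug selection of the KO line, so each condition is a separately made stable line, the transgene is driven by the doxycycline system and not by the CBX8 promoter, and no unedited T98G library was analysed here. The sources used here do not say whether the KO line is a single clone. A label calls the genotype of the second group wild type, whereas the titles and the methods describe re-expression in the KO line, and the titles were used. The genes were chosen by name and level: a symbol of the form LINC plus a number, a symbol ending in -AS or -AS plus a number, or 1 of 7 well-known noncoding RNAs (MALAT1, NEAT1, HOTAIR, H19, MEG3, SNHG1 and GAS5), with a mean of at least 1 CPM (the count divided by the column total, times 1e6) over the 6 libraries. Of 57133 symbols, 3118 had such a name and 539 of these reached the level, namely 415 antisense RNAs, 119 LINC RNAs and 5 of the 7 well-known RNAs. H19 and MEG3, both imprinted, were below 1 CPM.

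Long noncoding RNAs are transcripts without a long conserved reading frame. They include RNAs that build nuclear bodies (NEAT1 in paraspeckles, MALAT1 in nuclear speckles), host genes whose introns give rise to small nucleolar RNAs (snoRNAs), precursors of miRNAs, and antisense RNAs transcribed from the strand opposite to a coding gene, often from a shared bidirectional promoter. Several, HOTAIR among them, have been described as partners of polycomb complexes. Symbols ending in -AS are named after that coding gene, called the partner here.

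Total counts lay between 7950190 and 8659796 per library. CBX8 had 96, 104 and 83 counts in the KO libraries and 30372, 31408 and 27791 in the re-expression libraries, which was 11.7 CPM ± 0.94 against 3489 CPM ± 156 (SD, n = 3 each, log2 fold change 8.22, SE 0.08, adjusted p = 1.0e-30). CPM values from here on are on library sizes adjusted by the TMM method, and each fold change is re-expression over KO. Of markers of the cell type, VIM, CD44, EGFR, FN1 and ANXA1 were above 300 CPM, whereas NES, which encodes the neural stem cell filament nestin, was near absent at 0.298 CPM. Markers of blood, endothelial, epithelial, liver and oligodendrocyte cells were at or below 0.4 CPM in both groups, and of the neuronal markers RBFOX3 was at 0 and 0.079 CPM and SYT1 at 3.19 and 3.79 CPM. Counts in bulk RNA cannot tell fewer cells with a transcript from less of it per cell. Reads from both strands of a locus could have been counted together, since the strand setting of the count is not given in the sources used here and the library protocol describes no step that marks strand. Of the 527 RNAs found in GENCODE, 444 share exonic bases with another gene.

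Of the 539 RNAs, 514 had enough counts to be tested. In the WT CBX8 re-expression libraries 18 of them were lower and 11 higher than in the KO libraries (edgeR, adjusted p under 0.05 over all tested genes). These are 3.50% and 2.14% of the tested RNAs, and the same test called 6.63% of all 14461 tested genes lower and 6.23% higher. The RNAs had lower counts than other genes, with a median of 5.05 CPM against 23.2 CPM and a median SE of the log2 fold change of 0.197 against 0.102. At a mean of 20 CPM or more, 13 of 71 RNAs were called (18.3%), 11 lower and 2 higher, which is 15.5% and 2.82%. Of all tested genes at that level 17.3% were called, 10.4% lower and 6.92% higher. Between 5 and 20 CPM the call was made for 9 of 201 (4.48%, against 10.2%), and between 1 and 5 CPM for 7 of 242 (2.89%, against 4.70%). The median log2 fold change was 0.02 over the RNAs and 0.00493 over all tested genes. An unadjusted p under 0.05 was reached by 14.2% of the RNAs and by 25.3% of all tested genes. The KO and re-expression libraries did not overlap for 51 RNAs that were lower and 42 that were higher, together 18.1% of those tested. Among all tested genes 28.9% were without overlap, 14.4% in the lower direction and 14.4% in the higher direction.

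**Figure D1:**
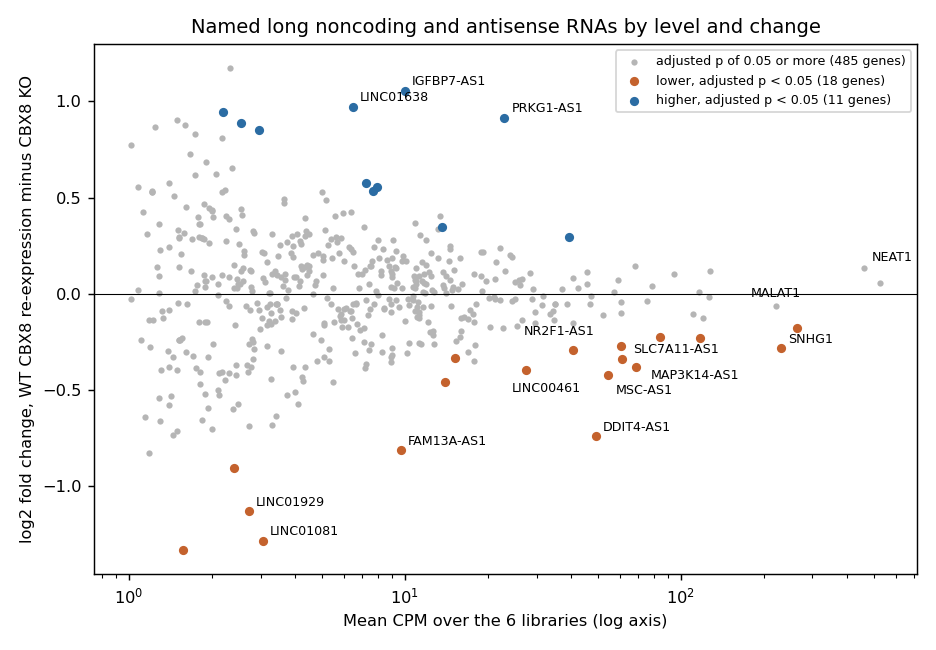
Each point is 1 of the 514 tested RNAs, with the mean CPM over the 6 libraries on the log x axis and the log2 fold change (WT CBX8 re-expression minus CBX8 KO) on the y axis. The 18 lower RNAs are orange, the 11 higher ones blue, and the 485 others grey. At 20 CPM or more, 11 of the 13 called RNAs lie below 0, and of all tested genes at that level 802 were called lower and 534 higher.

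Of the 29 calls, 13 held in each of the 6 fits that left out 1 library, 10 lower and 3 higher, and 16 did not. Without KO replicate 1, KO replicate 2 or re-expression replicate 2, the RNAs called higher numbered 6, 5 and 6. Of the 11 higher RNAs, 4, 5 and 5 were among them. Of all tested genes, 681, 622 and 593 were called higher in these 3 fits, beside 901 with all libraries. When counts were scaled by library size only, 13 RNAs were lower and 17 higher, where the median of all tested genes was 0.06, and DESeq2 called 13 lower and 3 higher. Over all tested genes these settings called 592 lower and 1400 higher, and 695 lower and 502 higher, beside 959 and 901.

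**Figure D2:**
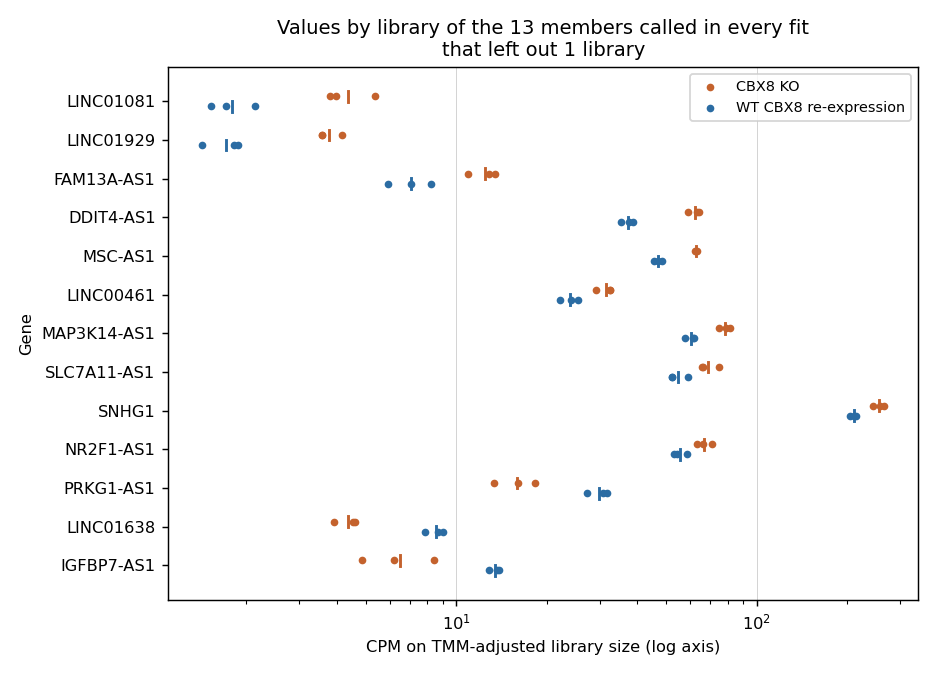
CPM per library on a log axis for the 13 RNAs called in every fit that left out 1 library, with CBX8 KO in orange, WT CBX8 re-expression in blue and a vertical tick at each mean of 3 libraries. The 2 colours do not overlap for any of the 13, from LINC01081 (3.79 to 5.35 CPM against 1.53 to 2.14 CPM) to IGFBP7-AS1 (4.87 to 8.45 CPM against 12.9 to 13.8 CPM).

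Among the 5 well-known RNAs above 1 CPM, only SNHG1 passed the test. SNHG1 (chr11:62851978-62855953, minus strand), whose introns carry several snoRNAs, had 256.5, 243.0 and 265.3 CPM in the KO libraries and 210.2, 214.0 and 204.6 CPM in the re-expression libraries. Every KO library was above every re-expression library, and SNHG1 fell by 0.28 on the log2 scale (SE 0.05, adjusted p = 0.00024). GAS5, another snoRNA host, which accumulates in growth-arrested cells, had 111.3, 116.7 and 115.8 CPM against 110.7, 107.5 and 101.4 CPM. The groups did not overlap for GAS5 either, but its log2 fold change of -0.11 (SE 0.05) did not pass (adjusted p = 0.23).

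NEAT1, the scaffold of paraspeckles, had 420.2, 454.3 and 448.2 CPM in the KO and 556.9, 460.5 and 431.8 CPM in the re-expression libraries. The groups overlapped, with re-expression replicate 1 above the other 5 libraries (log2 fold change 0.13, SE 0.07, adjusted p = 0.21). The estimate was 0.01 without re-expression replicate 1, and 0.20 and called (adjusted p = 0.038) without re-expression replicate 3. MALAT1 was at 226.9 CPM ± 14.1 and 217.4 CPM ± 12.05 (log2 fold change -0.06, SE 0.05, adjusted p = 0.52). In GENCODE, 83.7% of its exonic bases also belong to a gene on the opposite strand, so its counts may hold reads of both. HOTAIR, transcribed from the HOXC cluster, was at 10.7 CPM ± 0.35 and 11.2 CPM ± 0.86 (log2 fold change 0.07, SE 0.13, adjusted p = 0.80). Without re-expression replicate 1 the HOTAIR estimate was -0.0017.

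The snoRNA hosts were compared as a list of 35 host genes. This list, like the others below, was chosen with earlier results of these data known. Of the 35 genes, 31 were in the table and 29 were tested. Of these, 11 fell and 0 rose, with 14 lower and 0 higher at an unadjusted p under 0.05, 9 lower and 0 higher with DESeq2 and 11 and 0 with limma voom. Of all tested genes, 6.63% were called lower, and 10.4% of those at a mean of 20 CPM or more. An unadjusted p under 0.05 in either direction was reached by 25.3% of all tested genes. A total of 24 hosts had a log2 fold change below 0, with a median of -0.16 beside 0.00493 over all tested genes. The 11 were SNHG1, EPB41L4A-AS1, SNHG3 (-0.28, SE 0.07), SNHG4 (-0.23, SE 0.06), SNHG6 (-0.37, SE 0.08), SNHG7 (-0.28, SE 0.09), SNHG19 (-0.39, SE 0.13), DANCR (-0.31, SE 0.07), and the coding hosts RACK1, NOP56 and NCL. RACK1 is a ribosome-associated scaffold, NOP56 a core protein of box C/D snoRNPs and NCL the nucleolar protein nucleolin, and they fell by 0.16, 0.18 and 0.18. The libraries of the 2 groups overlapped for SNHG7 and SNHG19 and not for the other 9. EPB41L4A-AS1 had 16.5, 17.6 and 16.9 CPM in the KO and 13.6, 13.4 and 13.6 CPM in the re-expression libraries (log2 fold change -0.33, SE 0.11, adjusted p = 0.042), a call lost in each of the 6 fits that left out 1 library, where the highest adjusted p was 0.14 without KO replicate 2. The 18 hosts that were not called had log2 fold changes from -0.36 (SNHG8, SE 0.17) to 0.19 (SNHG11, SE 0.17). SNHG5, SNHG12, SNHG15, SNHG16, SNHG17 and ZFAS1, among these 18, were at -0.16 to 0.01.

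The count of lower hosts depended on the scaling and the libraries. It was 5 of 29, with a median of -0.11 and 20 below 0, when counts were scaled by library size only, and 5, 6, 7 and 6 without KO replicate 2, KO replicate 3, re-expression replicate 2 and re-expression replicate 3.

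**Figure D3:**
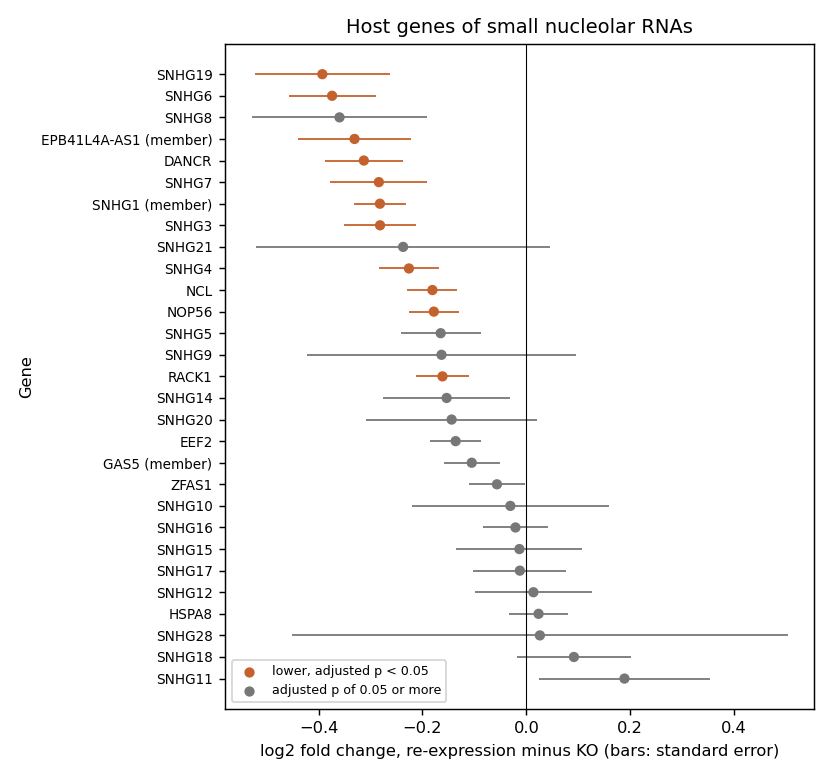
Log2 fold change (x axis, re-expression minus KO) with its standard error for each of the 29 tested snoRNA host genes, ordered by the estimate, with the 11 called lower in orange and the others in grey. The 3 genes that belong to the 539 RNAs, EPB41L4A-AS1, SNHG1 and GAS5, lie among hosts of which 24 are below 0.

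In RefSeq, SNHG1 starts 224 bases from the start of SLC3A2 (51 bases in GENCODE), which is transcribed in the other direction and encodes the heavy chain of several amino acid transporters. SLC3A2 was at 424.3 CPM ± 17.7 in the KO and 368.9 CPM ± 16.7 in the re-expression libraries (log2 fold change -0.20, SE 0.05, adjusted p = 0.0072). A called RNA and a called coding gene also started 213 bases apart in RefSeq at DDIT4-AS1 and DDIT4 and 153 bases apart at PRKG1-AS1 and DKK1. In GENCODE, which gave the gene coordinates in this text, PRKG1-AS1 starts farther upstream, 226 bases beyond the start of DKK1, so that the 2 genes overlap head to head. The 3 stretches between the RefSeq starts are shown because the RNA and its neighbour moved in the same direction at each. They come from RefSeq on GRCh38.p14 and read 5′ to 3′ on the strand of the noncoding RNA, all on the minus strand. Capitals mark the first 50 transcribed bases by the RefSeq start, and the lower-case part reaches to 1 base from the RefSeq start of the neighbour. By the GENCODE starts, the whole PRKG1-AS1 window and the lower-case bases of SNHG1 from 62855953 down to the capitals are transcribed too.
SNHG1 at chr11:62855836-62856108: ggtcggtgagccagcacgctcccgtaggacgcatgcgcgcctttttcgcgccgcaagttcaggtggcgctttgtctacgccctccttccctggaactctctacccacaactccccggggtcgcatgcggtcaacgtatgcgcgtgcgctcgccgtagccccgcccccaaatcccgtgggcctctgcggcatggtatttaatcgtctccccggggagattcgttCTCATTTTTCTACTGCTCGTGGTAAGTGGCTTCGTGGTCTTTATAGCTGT
DDIT4-AS1 at chr10:72273662-72273923: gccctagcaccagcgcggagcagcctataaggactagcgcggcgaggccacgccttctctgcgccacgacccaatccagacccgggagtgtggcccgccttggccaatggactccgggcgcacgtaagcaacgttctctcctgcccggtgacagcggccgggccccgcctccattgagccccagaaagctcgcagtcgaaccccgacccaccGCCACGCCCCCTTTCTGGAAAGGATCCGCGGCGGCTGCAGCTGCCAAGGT
PRKG1-AS1 at chr10:52314079-52314280: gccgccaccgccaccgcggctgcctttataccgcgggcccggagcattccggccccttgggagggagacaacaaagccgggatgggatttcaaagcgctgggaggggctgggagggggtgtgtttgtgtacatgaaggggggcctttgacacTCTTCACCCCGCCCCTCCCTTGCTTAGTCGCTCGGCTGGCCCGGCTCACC

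These windows hold 28, 26 and 14 CG pairs in 273, 262 and 202 bases. The median is 14 pairs over all 35116 RefSeq promoter windows of 300 bases and 20 over the 460 windows that matched 397 of the RNAs. The motifs searched on both strands were ACGTG (the core that hypoxia-inducible factors bind), TGACNNNGC (the core of the antioxidant response element) and TATAAA (the core of the TATA box). A match to ACGTG was found in the DDIT4-AS1 window, 92 bases upstream of its RefSeq start on the DDIT4 strand. A match to TATAAA was found in the PRKG1-AS1 window, 128 bases upstream on the DKK1 strand, and once in the transcribed part of the SNHG1 window. None of the 3 windows held TGACNNNGC. In the 300-base windows, ACGTG was found in 26.7% of those of the RNAs and 21.4% of all, TGACNNNGC in 16.3% and 13.3%, and TATAAA in 10.7% and 11.5%. A match is a run of letters and not a measured binding site.

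DDIT4-AS1 had the smallest p-value among the RNAs. It runs on chromosome 10 opposite to DDIT4, which encodes a stress-induced inhibitor of mTORC1, and had 63.1, 59.1 and 64.0 CPM in the KO and 38.7, 37.5 and 35.4 CPM in the re-expression libraries. All 3 KO libraries were above all 3 re-expression libraries, with a log2 fold change of -0.74 (SE 0.07, adjusted p = 2.8e-08). DDIT4 itself had 73.3, 82.3 and 82.4 CPM against 52.2, 44.9 and 40.5 CPM, a log2 fold change of -0.79 (SE 0.08, adjusted p = 2.8e-08). DDIT4-AS1 is in RefSeq but was not matched in GENCODE 44, so its overlap with other exons was not computed, and its count was 79.2% of that of DDIT4.

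PRKG1-AS1 (chr10:52230398-52314507, minus strand) is named after PRKG1, a cGMP-dependent protein kinase, but it starts by DKK1, which encodes a secreted inhibitor of Wnt signalling. It had 16.0, 13.3 and 18.3 CPM in the KO and 31.6, 30.7 and 27.3 CPM in the re-expression libraries. Every re-expression library was above every KO library (log2 fold change 0.92, SE 0.11, adjusted p = 1.2e-06). DKK1 rose from 102.0 CPM ± 4.22 to 228.3 CPM ± 4.20 (log2 fold change 1.16, SE 0.05, adjusted p = 7.2e-15), whereas PRKG1 had at most 0.238 CPM in any library and was not tested. Over 50% of the longest transcript of PRKG1-AS1 matched transcripts of 4 other genes at 95% identity or more, so some of its reads may belong to these.

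Opposite starts of a coding gene within 1000 bases were found in GENCODE for 176 RNAs, and both genes were tested in 146 of these pairs. Among the 146 RNAs, 2 were lower and 4 higher, and 18 of the coding genes were called, where 12.9% of all tested genes were called. Both genes were called in 4 pairs, each time in the same direction, namely SNHG1 with SLC3A2, BHLHE40-AS1 with BHLHE40, IGFBP7-AS1 with IGFBP7, and PRKG1-AS1 with DKK1. The 2 log2 fold changes had the same sign in 52.7% of the 146 pairs, with a Pearson r of 0.32 and a Spearman correlation of 0.16 across pairs. Both genes of a pair were measured in the same 6 libraries, and reads could be shared where exons overlap, which was not tested.

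Of the 415 antisense RNAs, 398 were tested, and 11 fell and 8 rose (2.76% and 2.01%, against 6.63% and 6.23% of all tested genes). The partner was in the table for 408 of the 415 and both genes were tested in 366 pairs. Of the 17 called antisense RNAs with a tested partner, 12 had a partner called in the same direction, 9 lower and 3 higher, 5 had a partner that was not called, and 0 had a partner called in the opposite direction. A further 60 partners, 32 lower and 28 higher, were called where the antisense RNA was not. In all, 72 of the 366 partners were called, beside 12.9% of all tested genes. Of 14 called antisense RNAs that share exonic bases with the partner, 11 had a partner called in the same direction. For the 2 that share none this number was 0. Across the 366 pairs the log2 fold changes had the same sign in 64.2%, with a Pearson r of 0.42 and a Spearman correlation of 0.41. For the 312 pairs that share exonic bases the same sign was seen in 66.3% (r = 0.46), and for the 49 pairs that share none in 49.0% (r = 0.19). Both genes of a pair were measured in the same 6 libraries, and where exons overlap the same reads could enter both counts, so these values are given as a description. The part of shared reads in them was not tested.

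**Figure D4:**
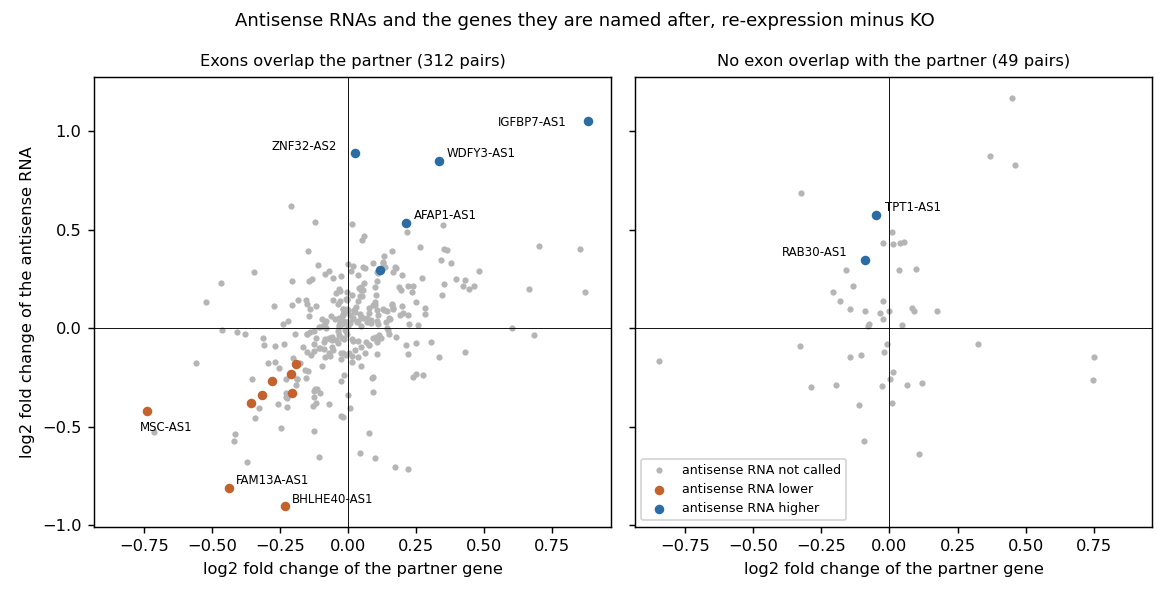
Log2 fold change of the antisense RNA (y axis) against that of its partner (x axis), re-expression minus KO, for the 312 pairs with exon overlap (left) and the 49 without (right), with lower antisense RNAs in orange, higher ones in blue and others in grey. The 5 pairs with unknown overlap, DDIT4-AS1 with DDIT4 among them, are not drawn. No called point lies in the lower right, and the upper left holds only TPT1-AS1 and RAB30-AS1, whose partners were not called.

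MSC-AS1, opposite to the gene of the helix-loop-helix repressor musculin, had 62.2, 62.9 and 63.2 CPM in the KO and 46.8, 45.6 and 48.5 CPM in the re-expression libraries (log2 fold change -0.42, SE 0.07, adjusted p = 4.8e-05). MSC fell by 0.74 (SE 0.07), from 94.9 CPM ± 5.89 to 56.8 CPM ± 6.09. The libraries of the 2 groups did not overlap for either gene.

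FAM13A-AS1 (chr4:88709298-88730103, plus strand) had 12.9, 10.9 and 13.4 CPM in the KO and 7.05, 5.94 and 8.21 CPM in the re-expression libraries, again with no overlap (log2 fold change -0.81, SE 0.15, adjusted p = 0.00035). FAM13A fell by 0.44 (SE 0.09). The antisense RNA count was 31.9% of that of FAM13A, and 8.43% of its exonic bases overlap it.

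MAP3K14-AS1 lies opposite to MAP3K14, the NF-kappaB-inducing kinase of the noncanonical pathway. It had 81.5, 74.6 and 78.8 CPM against 57.6, 61.5 and 61.5 CPM (log2 fold change -0.38, SE 0.06, adjusted p = 8.4e-05), and MAP3K14 fell by 0.36 (SE 0.05). SLC7A11-AS1 lies opposite to SLC7A11, the cystine-glutamate exchanger, which pairs with the SLC3A2 product named above. It had 65.5, 66.3 and 74.6 CPM against 52.2, 52.2 and 59.0 CPM (log2 fold change -0.34, SE 0.07, adjusted p = 0.0014), and SLC7A11 fell by 0.32 (SE 0.06). NR2F1-AS1, opposite to the gene of the orphan nuclear receptor COUP-TFI, was chosen after its values were seen, and went from 66.7 CPM ± 3.72 to 55.3 CPM ± 2.97 (log2 fold change -0.27, SE 0.07, adjusted p = 0.0065) beside NR2F1 at -0.28 (SE 0.05). In each of these 3 pairs no KO library was below any re-expression library for the antisense RNA.

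The remaining lower antisense RNAs lost the call in at least 2 of the 6 fits that left out 1 library. BHLHE40-AS1, opposite to the gene of a helix-loop-helix repressor, was at 3.16 CPM ± 0.58 and 1.68 CPM ± 0.39 (log2 fold change -0.90, SE 0.29, adjusted p = 0.037, and 0.15 without re-expression replicate 2). CD44-AS1, ZNF667-AS1 and LRRC75A-AS1, the first 2 of them chosen after their values were seen, fell by 0.23, 0.22 and 0.18, with adjusted p up to 0.10 without KO replicate 3, 0.062 without re-expression replicate 2 and 0.11 without re-expression replicate 3. LRRC75A-AS1 is also named SNHG29 and is a snoRNA host outside the list, at 281.3 CPM ± 14.4 and 248.3 CPM ± 12.5. CD44, the hyaluronan receptor, fell by 0.21 (SE 0.05), and CD44-AS1 had 4.37% of its count. The partners BHLHE40, LRRC75A and CD44 reached an adjusted p of 0.11 without KO replicate 2, 0.12 without re-expression replicate 2 and 0.076 without KO replicate 1.

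Among higher antisense RNAs, IGFBP7-AS1 had the largest log2 fold change. IGFBP7 encodes a secreted protein that binds insulin-like growth factors, and the 2 genes start 623 bases apart on opposite strands. IGFBP7-AS1 (chr4:57109762-57207459, plus strand) had 6.18, 4.87 and 8.45 CPM in the KO and 13.6, 13.8 and 12.9 CPM in the re-expression libraries. The highest KO library was below the lowest re-expression library, with a log2 fold change of 1.05 (SE 0.16, adjusted p = 2.4e-05). IGFBP7 rose from 34.2 CPM ± 0.49 to 62.9 CPM ± 4.35 (log2 fold change 0.88, SE 0.07, adjusted p = 2.9e-09), and 2.51% of the exonic bases of the antisense RNA overlap it.

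WDFY3-AS1 and AFAP1-AS1 were called together with their partners, WDFY3, an autophagy scaffold, and AFAP1, an actin filament binding protein. WDFY3-AS1 was at 2.11 CPM ± 0.54 and 3.81 CPM ± 0.59 (log2 fold change 0.85, SE 0.26, adjusted p = 0.032), and 85.9% of its exonic bases lie on WDFY3, which rose by 0.33 (SE 0.07). AFAP1-AS1 was at 6.27 CPM ± 0.93 and 9.07 CPM ± 0.81 (log2 fold change 0.54, SE 0.16, adjusted p = 0.023), with 42.2% of its exonic bases on AFAP1, which rose by 0.21 (SE 0.06). Without 1 library the adjusted p reached 0.15 for WDFY3-AS1 (KO replicate 1), 0.14 for AFAP1-AS1 (KO replicate 2) and 0.063 for AFAP1 (re-expression replicate 2).

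ZNF32-AS2, TPT1-AS1, RAB30-AS1 and MAP3K20-AS1 were higher with partners that were not called. TPT1-AS1 was at 5.80 CPM ± 0.47 and 8.66 CPM ± 0.60 (log2 fold change 0.58, SE 0.16, adjusted p = 0.014), beside TPT1, which encodes translationally controlled tumour protein, at 1076 CPM ± 57.1 and 1039 CPM ± 59.5 (-0.05, SE 0.05). ZNF32-AS2 had a log2 fold change of 0.89 (SE 0.27, adjusted p = 0.027), RAB30-AS1 of 0.35 (SE 0.11, adjusted p = 0.045) and MAP3K20-AS1 of 0.30 (SE 0.09, adjusted p = 0.022), and their partners were at 0.02, -0.09 and 0.12. MAP3K20 was called higher without re-expression replicate 1 (0.16, adjusted p = 0.043) and with library size only (0.17, adjusted p = 0.020). Left-out libraries raised the adjusted p to 0.057 for TPT1-AS1 (KO replicate 2), 0.12 for ZNF32-AS2 and 0.15 for MAP3K20-AS1 (re-expression replicate 2), and 0.17 for RAB30-AS1 (re-expression replicate 1).

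Of the 119 LINC RNAs, 111 were tested, and 6 fell and 3 rose (5.41% and 2.70%, against 6.63% and 6.23% of all tested genes). LINC01081 (chr16:86221420-86301303, minus strand), in the region of FOXF1, a transcription factor of lung and gut mesenchyme, had 3.79, 5.35 and 3.97 CPM in the KO and 1.53, 1.71 and 2.14 CPM in the re-expression libraries, from 30, 45 and 31 counts against 13, 15 and 18. All KO values were above all re-expression values (log2 fold change -1.28, SE 0.26, adjusted p = 0.0013). FOXF1, 209224 bases away, fell by 0.22 (SE 0.05), and FENDRR, the noncoding RNA transcribed divergently from FOXF1, fell by 0.25 (SE 0.05, adjusted p = 0.0013).

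LINC01929 (chr18:55105904-55124306, minus strand) had 4.16, 3.56 and 3.58 CPM in the KO and 1.88, 1.83 and 1.43 CPM in the re-expression libraries, with no overlap (log2 fold change -1.13, SE 0.27, adjusted p = 0.0045). TCF4, the nearest coding gene, at 97879 bases, had a log2 fold change of -0.13 (SE 0.07, adjusted p = 0.24). LINC00284, now named NRAD1 in GENCODE, had the lowest estimate, with 2.65, 2.02 and 2.18 CPM against 0.71, 0.57 and 1.43 CPM from 5 to 21 counts per library (log2 fold change -1.33, SE 0.37, adjusted p = 0.015). Its groups did not overlap, but the adjusted p was 0.10 without re-expression replicate 2, and DESeq2 gave it no adjusted p. LINC00284 passed the count filter through the KO libraries, where it was high, which favours a low estimate at this level. The nearest coding gene of LINC00284, LACC1, fell by 0.52 (SE 0.15).

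LINC00461 (chr5:88507546-88691057, minus strand) holds the hairpin of MIR9-2, a miRNA abundant in the developing brain. It had 32.4, 32.6 and 29.1 CPM in the KO and 24.0, 22.2 and 25.4 CPM in the re-expression libraries. The groups did not overlap (log2 fold change -0.40, SE 0.09, adjusted p = 0.0047). Of the 527 RNAs found in GENCODE, 9 hold a miRNA hairpin on their own strand. LINC00461 was the 1 that was called, where 12.9% of all tested genes were called. The miRNAs themselves were not measured in this poly(A) data. The mature sequences from that hairpin, as RefSeq gives them on the minus strand of chromosome 5, are shown with the seed (bases 2 to 8) in capitals.
hsa-miR-9-5p at chr5:88666902-88666924: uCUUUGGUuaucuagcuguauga
hsa-miR-9-3p at chr5:88666866-88666887: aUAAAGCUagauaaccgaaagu

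MEF2C, a transcription factor of muscle and neurons and the nearest coding gene of LINC00461 at 26060 bases, was higher, from 0.449 CPM ± 0.24 to 1.95 CPM ± 0.57 (log2 fold change 2.06, SE 0.45, adjusted p = 0.0024). Its KO level was too low for the count filter, so MEF2C was tested only through the re-expression libraries, which favours a rise. The MEF2C call was not checked with libraries left out. LINC00842 and LINC01224, the latter chosen after its values were seen, were lower by 0.46 (SE 0.13) and 0.29 (SE 0.08). Their adjusted p reached 0.15 and 0.13 without re-expression replicate 1. ZNF91, a zinc finger repressor of retroelements and the nearest coding gene of LINC01224, had a log2 fold change of 0.22 (SE 0.10, adjusted p = 0.15).

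LINC01638 (chr22:27221349-27225134, minus strand) was the higher LINC RNA with the lowest p-value. It had 3.91, 4.51 and 4.61 CPM in the KO and 9.05, 7.88 and 8.69 CPM in the re-expression libraries. All re-expression values were above all KO values (log2 fold change 0.97, SE 0.17, adjusted p = 0.00023), and none of its exonic bases overlap another gene. LINC00342 rose by 0.95 (SE 0.31, adjusted p = 0.041) and LINC00174 by 0.55 (SE 0.16, adjusted p = 0.023). ANKRD36C, the nearest coding gene of LINC00342 at 1916 bases, also rose by 0.95 (SE 0.30, adjusted p = 0.035). TPST1, which overlaps the locus of LINC00174, had a log2 fold change of -0.18 (SE 0.06, adjusted p = 0.059). DESeq2 gave LINC00342 no adjusted p. The adjusted p of LINC00342 was 0.18 without re-expression replicate 3 and that of LINC00174 was 0.14 without KO replicate 1, and 91.3% of the longest transcript of LINC00342 matched another gene, APPAT, at 95% identity or more.

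Among the 83 RNAs that share no exonic base with another gene, 78 were tested and 5 called (6.41%), namely LINC01081, LINC01929 and LINC01224 lower and LINC00342 and LINC01638 higher. Among the 444 that share such bases, 425 were tested and 23 called (5.41%). Over all tested genes 12.9% were called.

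VIM-AS1, opposite to the gene of the mesenchymal filament vimentin, had the highest mean, at 526.8 CPM of the column total, followed by NEAT1, LRRC75A-AS1, SNHG1 and MALAT1. VIM-AS1 was at 517.7 CPM ± 19.98 in the KO and 538.2 CPM ± 10.4 in the re-expression libraries (log2 fold change 0.06, SE 0.05, adjusted p = 0.51). Per kilobase of exon, the KO level was 243.5 CPM for VIM-AS1, 64.1 CPM for SNHG1, 21.8 CPM for MALAT1 and 19.4 CPM for NEAT1. VIM-AS1 had 19.03% of the count of VIM and shares 30.9% of its exonic bases with it, so reads of VIM may be among its counts.

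Noncoding RNAs with a reported link to polycomb were compared as a list of 15, 12 of which were tested. FENDRR and SNHG6 fell and 0 rose, as with DESeq2 and limma voom, and 1 was higher at an unadjusted p under 0.05. Of all tested genes, 6.63% were called lower and 6.23% higher. The median of the list was -0.08. KCNQ1OT1, which silences an imprinted domain in cis, had a log2 fold change of 0.48 (SE 0.17, adjusted p = 0.062) and overlapping groups. CDKN2B-AS1, from the INK4 locus, was at 2.78 CPM ± 0.27 and 2.81 CPM ± 0.49 (log2 fold change 0.02, SE 0.26, adjusted p = 0.98), a sign that turned without KO replicate 2 (-0.06) and without re-expression replicate 3 (-0.13). Of the 6 antisense RNAs of HOX clusters that were tested, 0 passed the test in edgeR, DESeq2 or limma voom and 0 had an unadjusted p under 0.05, with HOXC-AS3 the lowest at -0.43 (SE 0.22, adjusted p = 0.22).

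Proteins of paraspeckles, the bodies that NEAT1 scaffolds, were a list of 17. Of 16 tested, the RNA-binding proteins HNRNPA1 (-0.26, SE 0.05), CPSF7 (-0.19, SE 0.05) and TARDBP (-0.18, SE 0.05) fell and 0 rose, with 7 lower and 0 higher at an unadjusted p under 0.05 and 2 and 3 lower with DESeq2 and limma voom. All 16 had a mean of 20 CPM or more. Of all tested genes at that level, 10.4% were called lower and 31.1% had an unadjusted p under 0.05 in either direction. The median of the list was -0.10. The core proteins NONO, SFPQ and PSPC1 were at -0.11, -0.03 and 0.06 and were not called. With library size only, 1 of the 16 was lower.

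A last list held 40 other named noncoding RNAs whose symbols the name rule does not take, and 23 were tested. LUCAT1, a stress-responsive RNA, fell by 0.54 (SE 0.05, adjusted p = 2.5e-08), DANCR by 0.31 and FENDRR by 0.25, whereas MIR100HG, which hosts the miR-100, let-7a-2 and miR-125b-1 hairpins, rose by 0.31 (SE 0.07, adjusted p = 0.0046). These 3 lower and 1 higher calls stand beside 6.63% lower and 6.23% higher of all tested genes. The median of the list was -0.06. BDNF-AS, opposite to the gene of the neurotrophin BDNF, was at 0.09 (SE 0.12). A symbol at 0 here is not shown to be silent, since TERC and RN7SK, which are made in most cells but lack a poly(A) tail, were at 0 in all 6 libraries, as was MIR22HG.

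The lower limit on the mean level chose the RNAs, and those on either side of it had almost equal values. LINC00921, LINC00565 and COL5A1-AS1 were just inside, at 1.0004, 1.003 and 1.005 CPM of the column total, and A2ML1-AS1, ADAMTS9-AS1 and ITGB2-AS1 just outside, at 0.9994, 0.9994 and 0.995 CPM. None of these 6 had enough counts to be tested. Of the 2579 named RNAs below 1 CPM, 1663 had no count in any library and 4 were tested, of which ACTA2-AS1, opposite to the gene of smooth muscle actin, was higher (log2 fold change 1.32, adjusted p = 0.045). All 4 had a log2 fold change above 0, from 0.49 to 1.32. At so low a mean, an RNA passed the count filter only through the libraries where it was high, which favours a change between the groups. The 25 RNAs inside the limit that were not tested lay at or below 1.31 CPM.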

How the data were processed

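Poly(A) RNA of 6 libraries was sequenced as 100 bp paired-end reads. The authors trimmed adapters with Trimmomatic, aligned to hg38 with HISAT2 and deposited whole-number counts per gene symbol without normalization. The counting program, annotation and strand setting are not given in the sources used here. Counts were filtered by filterByExpr and scaled by TMM in edgeR 4.0.16 (R 4.3.3), and groups were compared with glmQLFit and glmQLFTest, condition as the only term. P-values were adjusted by Benjamini-Hochberg over 14461 genes, with 0.05 as threshold. SE was computed as the size of the log2 fold change over the root of F. Symbols were matched to GENCODE 44 by name (485) or synonym (42), and 12 were not matched. Near-identical transcripts were searched with blastn 2.17.0. The test was checked on simulated counts. Alternatives were DESeq2 1.42.0, limma 3.58.1 (voom), other scalings, filters and levels, a minimum 1.5-fold change, a replicate block and each library left out.

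Named genes were the 7 listed symbols, the 12 called RNAs with the lowest and the 12 with the highest log2 fold change, their partners, the 5 RNAs with the highest means, 3 on each side of the level, and the RNAs in the lists. The members and lists were chosen with earlier results of these data known. Library numbers do not state separate cultures, so p-values measure the spread between these libraries, and without molecular identifiers depth gives counting error only. Deviations of same-numbered libraries correlated at -0.12, -0.08 and -0.11 over 11398 genes, so the numbers were not taken to pair them.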

Additional observations from a re-analysis of the deposited data

How the results depend on the processing

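Of 700 fits of 54 named genes under an alternative, 126 lost a call, 3 gained one (NEAT1 and, under 2 settings, MAP3K20) and 6 changed sign. No called RNA changed sign, and 13 kept the call in every alternative other than a minimum 1.5-fold change, which 7 of them also passed. The 18 lower RNAs became 6 with that minimum and 3 without exon overlap. The 11 higher became 17 with library size only, 3 with DESeq2, 6 with the minimum and 2 without exon overlap. Leaving out 1 library gave 12 to 16 lower and 5 to 9 higher RNAs. With a replicate block, 15 were lower and 10 higher.

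The 11 lower snoRNA hosts became 5 with library size only, 0 with the 1.5-fold minimum and 5 to 10 without 1 library, and with no filter on low counts 1 host was higher. The 3 lower paraspeckle genes became 1 with library size only and 0 with the minimum. Of the polycomb-linked RNAs, 0 were lower with the minimum, and 1 was higher with library size only and 0 to 1 without 1 library. Of the other noncoding RNAs, 0 were lower and 0 higher with the minimum, 2 were higher with library size only and 1 to 2 without 1 library. The cause was not tested where it is not the setting's own construction.

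The estimates that changed sign were HOTAIR (-0.0017 to 0.0979 without 1 library, below 0 without re-expression replicate 1), TPT1 (0.0059 with library size only), ZNF32 (-0.0911 to 0.1054 without 1 library, below 0 at -0.0911 without KO replicate 3 and -0.0127 without re-expression replicate 1) and CDKN2B-AS1 (-0.1251 to 0.1251 without 1 library, below 0 at -0.0591 without KO replicate 2 and -0.1251 without re-expression replicate 3). None of these was called. RNAs between 1 and 5 CPM had a median SE of 0.292 on the log2 scale, and all tested genes at that level 0.291. What sets the share called there was not tested.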
